A study of Homo sapiens with 18 samples.

Results

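Small RNA carried by extracellular vesicles was compared between HEK293T cells that lack ATG7 and wild type HEK293T cells. HEK293T is a human embryonic kidney line. The comparison used the 3 ATG7-/- vesicle libraries and the 3 wild type vesicle libraries, 6 of the 18 libraries of the study, and it took in every one of the 2462 small RNA features of the deposited table. The ATG7-/- vesicles came from a single clone, clone F2, so the genotype and the clone cannot be told apart. All cultures, wild type included, were kept without serum for 24 h before collection. Beside these stand 3 wild type and 3 ATG7-/- cell libraries and 3 vesicle libraries of an ATG12-/- clone, which carried the same starvation. The labels name the 3 libraries of a group as biological replicates. The ATG7 transcript is a messenger RNA and was not measured here, so the genotype label was not checked against it.

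ATG7 is the E1-like enzyme of the autophagy pathway that, with ATG12 and its partners, attaches LC3 to membrane lipid. Cells also use this conjugation machinery to load cargo, RNA-binding proteins among it, into vesicles that leave the cell. Several of the RNA classes followed here work in the nucleus. C/D box small nucleolar RNAs (snoRNAs) guide ribose methylation of ribosomal RNA, and H/ACA box snoRNAs guide pseudouridylation. Small Cajal body RNAs (scaRNAs) guide the same reactions on spliceosomal RNA. Most human snoRNAs are cut out of introns of a host gene. Transfer RNAs (tRNAs), Y RNAs and vault RNAs are made by RNA polymerase III, and microRNAs are short regulators loaded into Argonaute.

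The snoRNAs on which the results turn are shown first, from the GENCODE release 29 transcripts on the GRCh38 build. Capitals mark the H box (ANANNA) and the ACA box of H/ACA snoRNAs, and the C box (TGATGA) and D box (CTGA) of C/D snoRNAs where the search found them. The H box is the match near the middle that follows the longest stem with the 5′ end. The first lines are H/ACA snoRNAs with large losses, then come the paralog pairs ACA38 with SNORA38B and U71c with U71d, whose members moved by different amounts, then the C/D snoRNA U73a, which fell, and last U22, which went the other way.
ACA62: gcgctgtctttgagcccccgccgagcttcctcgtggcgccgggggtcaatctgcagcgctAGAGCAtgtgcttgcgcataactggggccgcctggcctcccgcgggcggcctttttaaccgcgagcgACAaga
ACA28: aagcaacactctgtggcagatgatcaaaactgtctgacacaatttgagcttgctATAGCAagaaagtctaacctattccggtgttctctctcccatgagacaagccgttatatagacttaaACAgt
ACA38: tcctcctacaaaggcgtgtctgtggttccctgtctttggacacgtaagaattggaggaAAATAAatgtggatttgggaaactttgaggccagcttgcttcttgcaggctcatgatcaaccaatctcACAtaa
SNORA38B: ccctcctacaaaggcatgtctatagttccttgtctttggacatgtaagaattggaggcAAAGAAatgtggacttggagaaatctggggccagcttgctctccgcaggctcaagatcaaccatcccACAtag
U71c: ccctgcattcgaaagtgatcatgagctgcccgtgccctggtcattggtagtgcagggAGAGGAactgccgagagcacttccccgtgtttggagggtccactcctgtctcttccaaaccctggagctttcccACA
U71d: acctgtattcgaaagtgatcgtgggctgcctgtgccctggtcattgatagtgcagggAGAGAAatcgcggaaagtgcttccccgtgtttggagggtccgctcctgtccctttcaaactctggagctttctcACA
U73a: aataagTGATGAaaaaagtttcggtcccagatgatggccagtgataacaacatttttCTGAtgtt
U22: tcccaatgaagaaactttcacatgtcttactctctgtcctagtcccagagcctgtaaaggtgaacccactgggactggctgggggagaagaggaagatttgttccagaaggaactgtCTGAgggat

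Values are normalised reads, meaning the reads of a feature divided by 1 size factor per library. The reads assigned to features numbered 2185734, 2043493 and 1881080 in the wild type vesicle libraries. In the ATG7-/- vesicle libraries they numbered 2931959, 3382605 and 2647529, so the ATG7-/- totals were larger. These totals sum over features, so a read held by several copies can count more than once. Glutamate tRNA entries made up on average 35.5% of the wild type and 61.6% of the ATG7-/- totals. Larger totals therefore need not mean deeper sequencing. Scaling by library totals, used below, rests on the same sums. A single read was worth 1.38 to 1.46 normalised reads in the first group and 1.17 to 1.33 in the second. Wild type replicate 1 stood somewhat apart. It differed from the other wild type libraries with a chi-square per degree of freedom of 100 and 60.2, where counting error alone gives about 1. Those libraries differed from each other with 8.85, and the pairs of ATG7-/- libraries with 34.6, 20.3 and 15.7. Pearson's r of the log2 values lay between 0.982 and 0.992 for every pair within a group. All values are relative to the other RNAs of a library, so fewer vesicles holding an RNA and less of it per vesicle cannot be told apart.

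SnoRNAs and scaRNAs fell in ATG7-/- vesicles almost as a class, many tRNA genes rose more modestly, and microRNAs split. The test took in features with 10 or more normalised reads in 3 or more of the 9 vesicle libraries. Of 850 such features, 531 were called (62.5%): 285 were higher in ATG7-/- vesicles (33.5% of those tested) and 246 were lower (28.9%) at a limma adjusted p under 0.05, with Benjamini-Hochberg adjustment over all 850. Of the 246 lower features, 224 were snoRNAs or scaRNAs, and of the 285 higher features, 241 were tRNA genes. The median log2 fold change, ATG7-/- over wild type, was -1.69 over 256 tested snoRNAs and scaRNAs and 0.47 over 467 tested tRNA genes, against 0.11 over all 850 features. Without wild type replicate 1 the counts were 299 higher and 242 lower, with 215 snoRNAs and scaRNAs lower and 245 tRNA genes higher.

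The split between higher and lower depended on the scaling. Dividing by library totals gave 148 higher (17.4%) and 318 lower (37.4%), so that 31.8% of the calls were higher, against 53.7% with the deposited size factors. Scaling by TMM over microRNAs gave 129 higher (15.2%) and 303 lower (35.6%), with 29.9% of the calls higher. Relative to the deposited factors, the median of all features shifted by -0.36 under either of these and by -0.12 under TMM over all features. The snoRNA loss kept its direction under each of them (median between -2.04 and -1.69), whereas the tRNA gain shrank to a median of 0.09 with library totals.

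**Figure D1:**
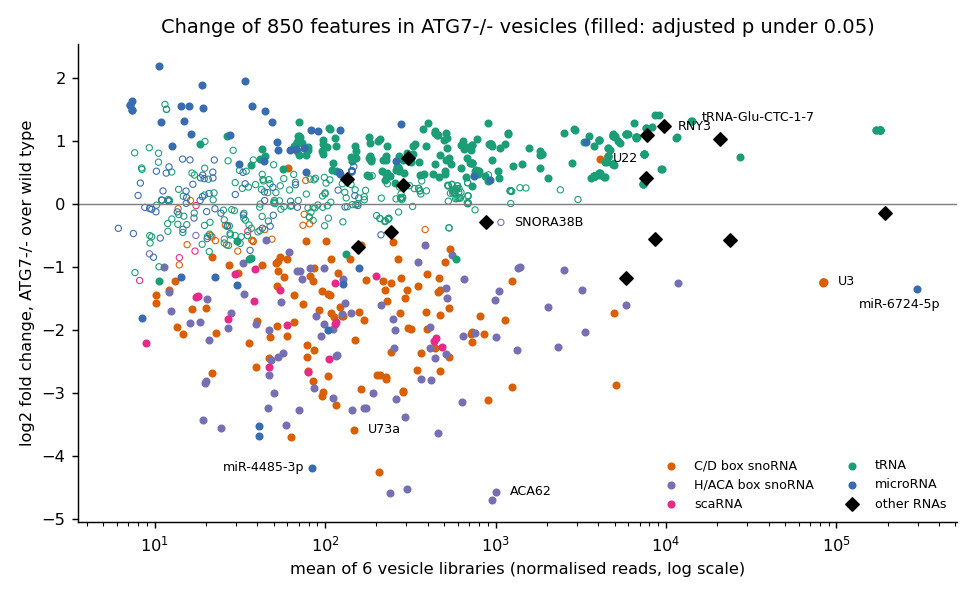
Log2 fold change of 850 features in ATG7-/- over wild type vesicles (vertical axis) against the mean normalised reads of the 6 libraries (horizontal, log scale), coloured by RNA class, with filled points for adjusted p under 0.05 and black diamonds for other RNAs whether called or not. Most snoRNAs and scaRNAs lie below 0, with a median of -1.69, while most tRNA genes lie between 0 and 1.5.

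The same shift was visible in the shares of assigned reads per class, which do not use the size factors. A share sums all entries of its class, so a read held by several copies can count more than once. C/D box snoRNAs took 25.6%, 19.9% and 21.1% of the assigned reads in wild type vesicles and 6.15%, 8.44% and 6.77% in ATG7-/- vesicles. H/ACA box snoRNAs took 2.97%, 2.75% and 2.81% and then 0.663%, 0.856% and 0.604%. ScaRNAs went from 0.137% ± 0.00837 to 0.0284% ± 0.00233 (SD, n = 3 each). In all 3 classes every wild type library lay above every ATG7-/- library.

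Reads on tRNA genes made up 43.3%, 54.7% and 52.2% of wild type vesicle reads and 82.4%, 78.0% and 79.7% of ATG7-/- vesicle reads. Summed over its entries, glutamate tRNA alone went from 35.5% ± 3.48 to 61.6% ± 1.36. All other tRNAs together went from 14.5% ± 2.54 to 18.5% ± 0.907 (SD, n = 3). With the copies of a family counted once, at their mean, tRNAs went from 32.5% ± 5.12 to 63.9% ± 3.06. SnoRNAs with scaRNAs then went from 23.3% ± 1.69 to 8.81% ± 1.31, and microRNAs from 26.8% ± 3.77 to 10.8% ± 1.23. Entries of different families that share reads were still counted apart. For the 7 of 9 class shares whose groups did not overlap, snoRNAs, scaRNAs, tRNAs, microRNAs and snRNAs among them, the two-sided exact permutation p was 0.1, the smallest that 3 against 3 libraries allow, and 0.129 after adjustment over the 9 shares. Intervals of shares are not given because copies of 1 RNA can hold the same reads and PCR reads are not independent molecules.

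**Figure D2:**
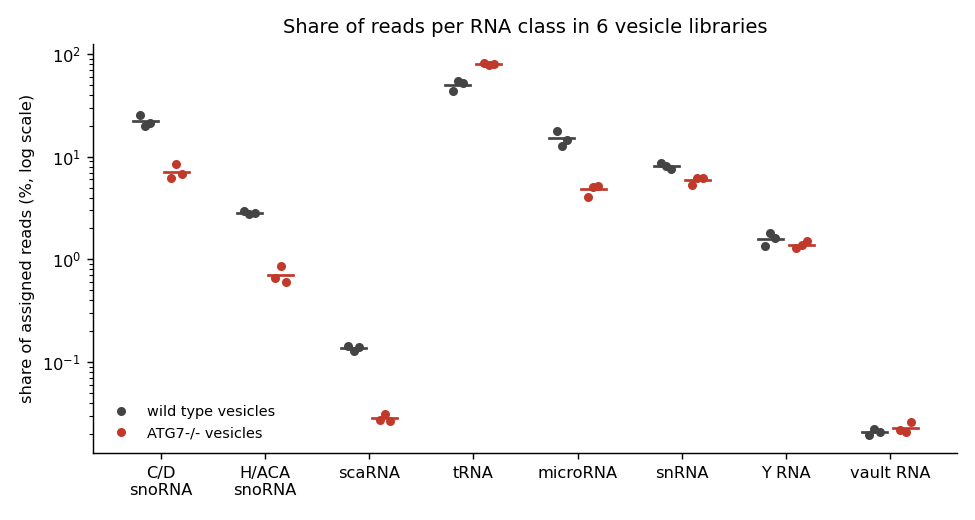
Share of assigned reads (percent, log scale) of 8 RNA classes in the 3 wild type (grey) and 3 ATG7-/- (red) vesicle libraries, with points for libraries and bars for means. The C/D, H/ACA and scaRNA points of the ATG7-/- libraries lie below those of the wild type, tRNA lies above, and the Y RNA and vault RNA points overlap.

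The H/ACA box snoRNAs fell furthest. The table lists 108, and 92 could be tested. Of these, 88 were lower in ATG7-/- vesicles, none was higher, and the median log2 fold change was -1.96. Of the 92, 42 fell below -2 on the log2 scale and 11 were more than 10 times lower by their means. ACA62 (SNORA50C, chr17:64146339-64146471 in an intron of SNHG25) had 2340, 1538 and 1949 normalised reads in wild type vesicles and 75.2, 95.8 and 69.0 in ATG7-/- vesicles. That is 24.3-fold lower by the means, with a log2 fold change of -4.58 (SE 0.18, limma adjusted p = 1.43e-09).

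U72 (SNORA72), from an intron of the ribosomal protein gene RPL30, fell from 1847, 1641 and 2028 to 65.9, 94.6 and 53.0, a log2 fold change of -4.71 (SE 0.19). ACA28 (SNORA28, chr14:103337849-103337974, hosted by the translation factor gene EIF5) fell from 441, 618 and 680 to 25.1, 29.2 and 18.6, a change of -4.52 (SE 0.21). ACA16, in SNHG12, fell by 4.59 on the log2 scale, and U19, in SNHG4, by 3.63. For each of these 5 the lowest wild type library was several times the highest ATG7-/- library.

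The 2 H/ACA snoRNAs with the highest means over the 6 libraries had smaller changes. ACA21 (SNORA21, in the ribosomal protein gene RPL23) went from 20223, 14681 and 14478 to 6632, 8790 and 5470, a log2 fold change of -1.25 (SE 0.16). ACA10, in RPS2, went from 10282, 8115 and 8036 to 2848, 3478 and 2453, a change of -1.59 (SE 0.14). E2, E3 and the U17 entries, H/ACA snoRNAs with a part in cutting the ribosomal RNA precursor, were lower in 5 of 5 cases. E3, in an intron of EIF4A2, fell by 1.95, and U17a, in SNHG3, by 1.37.

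ACA38 and SNORA38B are paralogs in different hosts, and they did not move alike. ACA38 (SNORA38, chr6:31623079-31623210, in PRRC2A) went from 1161, 1055 and 1212 in wild type vesicles to 119, 161 and 111 in ATG7-/- vesicles. SNORA38B (chr17:67740669-67740799, in NOL11) went from 1461, 1091 and 976 to 893, 1286 and 745, and its groups overlapped. The log2 fold change was -3.14 (SE 0.18) for ACA38 and -0.29 for SNORA38B, with a 95% interval of -0.70 to 0.12 (limma adjusted p = 0.205). SNORA38B was called lower with library totals, with TMM over microRNAs and without ATG7-/- replicate 2, at most at -0.66.

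The ratio of ACA38 to SNORA38B within a library does not depend on scaling. It was 0.794, 0.967 and 1.24 in the wild type vesicles, and 0.133, 0.125 and 0.149 in the ATG7-/- vesicles. In cells it was 0.860 to 1.15 in wild type and 1.14 to 1.32 in ATG7-/- cultures, so the ratio dropped in the vesicles and not in the cells. In ATG12-/- vesicles the ratio was 0.335, 0.245 and 0.235, between the ATG7-/- and the wild type vesicles. The 2 sequences are 132 and 131 bases long and match at 85.1% of aligned positions. The pair was chosen after its values were seen, so no test is given.

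U71c and U71d share a host, SNHG17, as well as 86.6% of their aligned positions. U71c (chr20:38429670-38429803) fell from 335, 235 and 216 to 36.9, 26.9 and 17.2, a log2 fold change of -3.27 (SE 0.25). U71d (chr20:38433865-38433998) fell from 3703, 3248 and 3224 to 1618, 2190 and 1231, a change of -1.05 (SE 0.17). The ratio of U71c to U71d was 0.0670 to 0.0906 in wild type vesicles and 0.0123 to 0.0228 in ATG7-/- vesicles. In cells it was 0.3495 to 0.3699 in wild type and 0.223 to 0.298 in ATG7-/- cultures, so it was lower in both, and more so in vesicles. In ATG12-/- vesicles the ratio was 0.0208 to 0.02235, within the range of the ATG7-/- vesicles. This pair, too, was chosen after its values were seen.

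Among C/D box snoRNAs, 140 of 268 could be tested, 117 were lower, 2 were higher and 21 were not called, with a median log2 fold change of -1.44. U73a (SNORD73A, chr4:151103827-151103891, in an intron of the ribosomal protein gene RPS3A) fell from 286, 259 and 279 to 18.5, 32.7 and 17.2, a change of -3.59 (SE 0.26). All of its ATG7-/- values lay far below its wild type values, and the rule that named it required separate groups.

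snR38A (SNORD1A, in SNHG16) fell by 3.70 and U94 (in PTCD3) by 3.19 on the log2 scale. Their groups did not overlap, which the rule that named them required. U62A and U62B, identical in sequence, carried nearly the same reads and fell by 2.97 and 2.99. They are 1 measurement, not 2.

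A fixed list took in C/D snoRNAs tied to processing of the ribosomal RNA precursor, and of its 12 entries 11 were lower and 1 was higher. U3, needed for the early cleavages, fell from 148980, 102480 and 105430 to 44275, 62305 and 44597, a log2 fold change of -1.24 (SE 0.16). Its 5 entries carry nearly the same reads and all gave -1.24. Summed over those 5 entries, the share on U3 was 20.1% ± 2.90 in wild type and 6.56% ± 1.11 in ATG7-/- vesicles. That sum was the bulk of the C/D share, and a read held by several entries can count more than once in it. Without U3 the C/D share still went from 2.09% ± 0.152 to 0.559% ± 0.0775 (SD, n = 3).

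U8, which acts in maturation of the large subunit RNA, fell further than U3, from 11080, 7263 and 8549 to 1167, 1641 and 906, a change of -2.88 (SE 0.20). U14A and U14B, which sit in RPS13 introns, fell by 1.43 and 1.68, and U13 by 0.88.

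U22 moved the other way. This C/D snoRNA of the processing list is SNORD22 (chr11:62852910-62853035, in SNHG1). It had 3505, 2902 and 2714 normalised reads in wild type vesicles and 4504, 6687 and 4147 in ATG7-/- vesicles. All 3 ATG7-/- libraries lay above the wild type, with a log2 fold change of 0.73 (SE 0.18, limma adjusted p = 0.00287). Under library totals or TMM over microRNAs it no longer passed, the change being as low as 0.35. HBII-99, in ZFAS1, was the other higher C/D snoRNA, named here after its values were seen: 62.2, 37.3 and 46.7 against 75.2, 73.6 and 66.3. With TMM, edgeR or DESeq2 U22 was the only snoRNA called higher, so that HBII-99 was not called, and with library totals or TMM over microRNAs no snoRNA was called higher. U76, in GAS5, and HBII-276, in SNHG6, were the C/D snoRNAs with the highest means among those not called, at -0.40 and -0.31, and both were called lower with library totals.

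**Figure D3:**
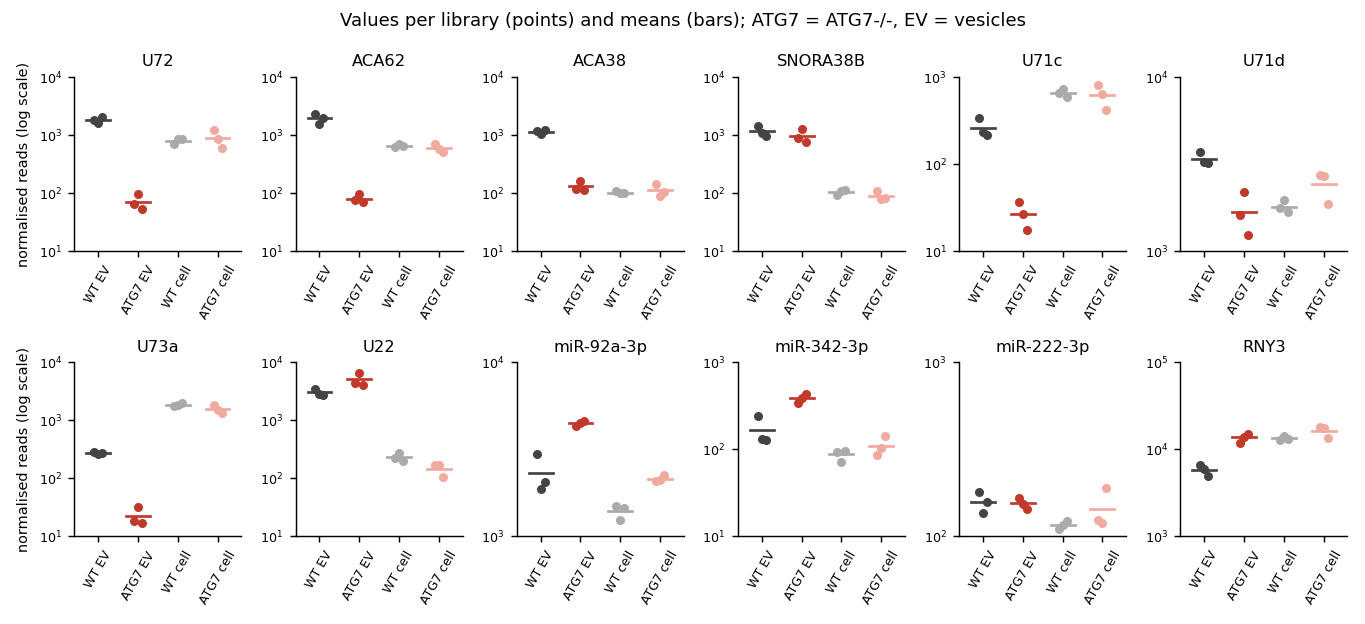
Normalised reads (log scale) of 12 RNAs in wild type vesicles, ATG7-/- vesicles, wild type cells and ATG7-/- cells, with points for the 3 libraries of a group and bars for means. ACA38 drops in ATG7-/- vesicles (119, 161 and 111) while SNORA38B overlaps between the genotypes, and U22 lies higher.

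Of 24 scaRNAs, all tested, 19 were lower and none was higher, with a median of -1.51. U100 fell from 111, 147 and 150 to 11.9, 38.5 and 18.6, a log2 fold change of -2.66 (SE 0.32). ACA11 fell from 192, 163 and 181 to 26.4, 47.9 and 25.2, a change of -2.45 (SE 0.23). ACA26 fell by 2.27, and mgU2-25/61, a guide for the U2 spliceosomal RNA, by 2.13; the entry HBII-382 lies at the same locus and shares its reads. Of the H/ACA scaRNAs, 7 of 9 were lower, and of the C/D and composite scaRNAs, 8 of 9. U93 had 15.9, 16.6 and 20.4 against 19.8, 16.4 and 15.9 and was not called, with an interval of -0.56 to 0.51.

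The kind of host gene divided the snoRNAs and scaRNAs little. Those in ribosomal protein genes were lower in 52 of 56 cases (median -1.65), those in translation factor genes in 14 of 14 (median -2.04), those in other protein-coding genes in 95 of 111 (median -1.78) and those in long noncoding RNAs in 51 of 61 (median -1.54). Both higher snoRNAs had a noncoding host. Across C/D snoRNAs the log2 fold change correlated weakly with annotated length (Spearman's rho 0.09, n = 134), GC content (-0.10, n = 112) and level in wild type cells (0.25, n = 140). For H/ACA snoRNAs the values were 0.08 (n = 91), 0.03 (n = 89) and 0.14 (n = 92). These are across RNAs that share libraries and are given as descriptions.

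The 3 short motifs fixed for this comparison were searched on the RNA strand in the snoRNA sequences. GGAG, reported as a vesicle sorting motif, was in 24 of 112 tested C/D snoRNAs, whose median was -1.76 against -1.55 without it, and in 39 of 89 H/ACA snoRNAs (-1.88 against -1.99). The C-rich CCC was in 51 of the C/D snoRNAs (-1.77 against -1.48) and 71 of the H/ACA snoRNAs (-1.998 against -1.76). GAAGA, reported for the RNA-binding protein SAFB, was in 16 (-1.57 against -1.65) and 14 (-1.31 against -1.998). Among all placed members of the classes, GGAG was in 12.97% of C/D and 43.7% of H/ACA snoRNAs, CCC in 46.4% and 79.6%, and GAAGA in 24.3% and 19.4%. With or without each motif the medians were well below 0.

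The snoRNA loss was not mirrored in the cells that released the vesicles. ATG7-/- cells against wild type cells gave 143 calls among 853 features (16.8%), 72 higher (8.44%) and 71 lower (8.32%). Over the same 256 snoRNAs and scaRNAs the cell median was -0.10, with 8 higher and 11 lower. ACA62 had 618, 690 and 660 normalised reads in wild type cells and 701, 566 and 510 in ATG7-/- cells, and U72 696, 868 and 845 against 1223, 844 and 592. In both cases the cell groups overlapped. Scaling the cells by TMM over microRNAs moved their snoRNA and scaRNA median to -0.63 and called 200 of 272 lower.

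A direct test of the difference, the vesicle change minus the cell change over all 18 libraries, called 498 of 905 features (55.0%), 260 lower (28.7%) and 238 higher (26.3%). Of the 256 snoRNAs and scaRNAs, 216 were lower in this difference and 1 was higher. Of the 224 that fell in vesicles, 212 were lower in it, but their vesicle fall is part of the difference. In cells 6 of the 224 were higher and 9 lower. The median difference was -1.56 over the 256 snoRNAs and scaRNAs. ACA28 had the difference -4.77 and U22 the difference 1.41, the latter as the single higher one of the 256.

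**Figure D4:**
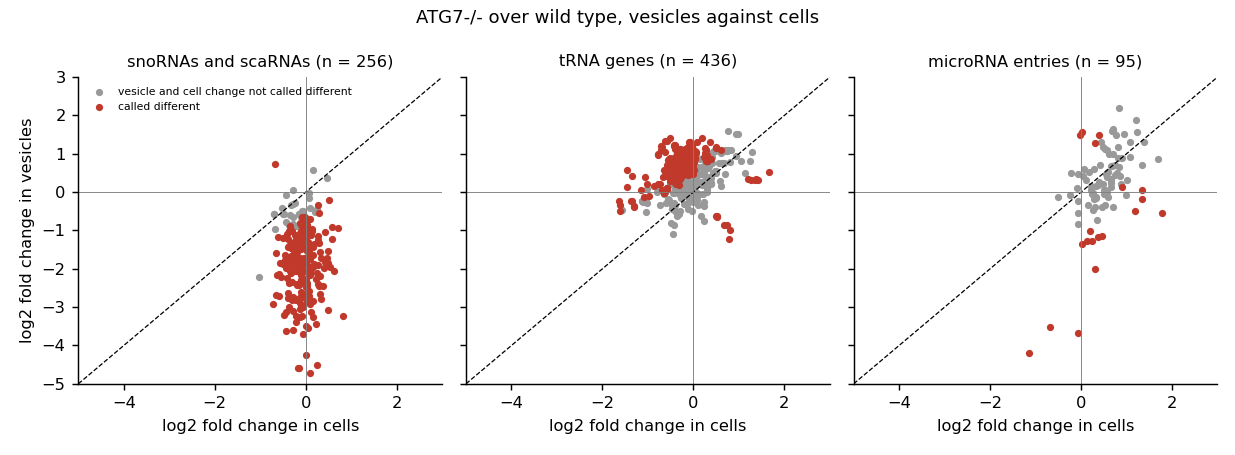
Log2 fold change of ATG7-/- over wild type in vesicles (vertical) against that in cells (horizontal) for snoRNAs with scaRNAs, tRNA genes and microRNA entries tested in both; the dashed line marks equal change, and red points had a difference with adjusted p under 0.05. The snoRNAs spread far below the line around a cell change of 0, tRNA genes mostly sit above it, and with the deposited size factors most microRNAs lie near it.

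The ATG12-/- clone gave a second view of the same pathway, since ATG12 acts with ATG7 in LC3 conjugation. Set directly against ATG7-/- vesicles, ATG12-/- vesicles differed in 424 of 850 features (49.9%), 226 higher (26.6%) and 198 lower (23.3%). Of the 256 snoRNAs and scaRNAs, 197 were higher in ATG12-/- than in ATG7-/- vesicles and none was lower, with a median of 1.06. ACA62 had 199, 194 and 224 normalised reads in ATG12-/- vesicles, above its ATG7-/- values and far below its wild type values. U3, at 135780, 143020 and 170920, was 1.58 higher on the log2 scale than in ATG7-/- vesicles, and its values overlapped the wild type ones. ACA21 had 21666, 21249 and 21505, all above its wild type values. Neither was tested against wild type. U8, with 1248, 1256 and 1361, overlapped between the clones, with a difference of 0.10 (limma adjusted p = 0.73).

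The tRNA genes were unevenly changed. The table lists 622, and 467 could be tested, of which 241 were higher, 6 were lower and 220 were not called. Genes of 1 family, named alike up to the last number, share reads, so families count better: of 304 families, 135 had every tested gene higher, 6 had every one lower, 160 had none called, and none mixed directions. With library totals 125 genes were higher and 44 lower, and with TMM over microRNAs 105 and 30.

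Glutamate tRNA, a common source of tRNA fragments in vesicles, had the highest median of the isotypes, 1.18, with 23 of 26 genes higher. tRNA-Glu-CTC-1-7 went from 107970, 116970 and 108080 to 263050, 257800 and 233400, a log2 fold change of 1.18 (SE 0.08, limma adjusted p = 1.3e-07). tRNA-Glu-TTC-4-2 holds largely the same reads (100860, 110280 and 101890 against 249600, 244540 and 219180). tRNA-Glu-TTC-2-2 rose by 1.33, from 7297, 8509 and 8154 to 22901, 20174 and 17394. In each, all ATG7-/- libraries lay above every wild type library, which the naming rule required of tRNA-Glu-TTC-2-2.

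Glycine tRNAs had 27 of 33 genes higher, with a median of 0.80. tRNA-Gly-CCC-2-1 had the largest rise among those named, from 4347, 5264 and 4514 to 13590, 12921 and 11352, a change of 1.42 (SE 0.11). tRNA-Val-AAC-1-1 went from 3180, 4220 and 3914 to 10515, 9406 and 7881 (1.30, SE 0.13), and tRNA-Tyr-GTA-2-1 from 659, 506 and 422 to 1156, 1487 and 1225 (1.30, SE 0.16). Tyrosine (1.06), initiator methionine (0.95), tryptophan (0.87) and lysine (0.72, with 24 of 28 genes higher) also had medians well above that of all features.

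At the other end aspartate tRNA had 1 of 15 genes higher and a median of 0.09, asparagine 2 of 27 and 0.19, and alanine 15 of 46 and 0.18. With library totals the medians of these 3 isotypes turned negative, at -0.28, -0.18 and -0.20. Anticodons differed within an isotype: alanine AGC had a median of -0.22, alanine CGC 0.58. tRNA-Arg-CCG-2-1 (2220, 3476 and 3290 against 3260, 3024 and 3017) and tRNA-Arg-CCT-4-1 (1768, 2494 and 2401 against 2839, 2559 and 2350) had the highest means among families not called.

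Leucine, serine and selenocysteine tRNAs, which have a long variable arm, were higher in 26 of 59 genes (median 0.33), and the other nuclear tRNAs in 215 of 400 (median 0.48). Serine AGA split by family. tRNA-Ser-AGA-3-1 fell from 158, 166 and 185 to 102, 102 and 88.9, a change of -0.79 (SE 0.15), while the 8 other tested genes with that anticodon rose by 1.01 to 1.11. Nuclear copies of mitochondrial tRNAs, 8 of them tested, had a median of -0.64 with 2 lower and none higher, at levels of at most 52.5 normalised reads in any of the 6 libraries.

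**Figure D5:**
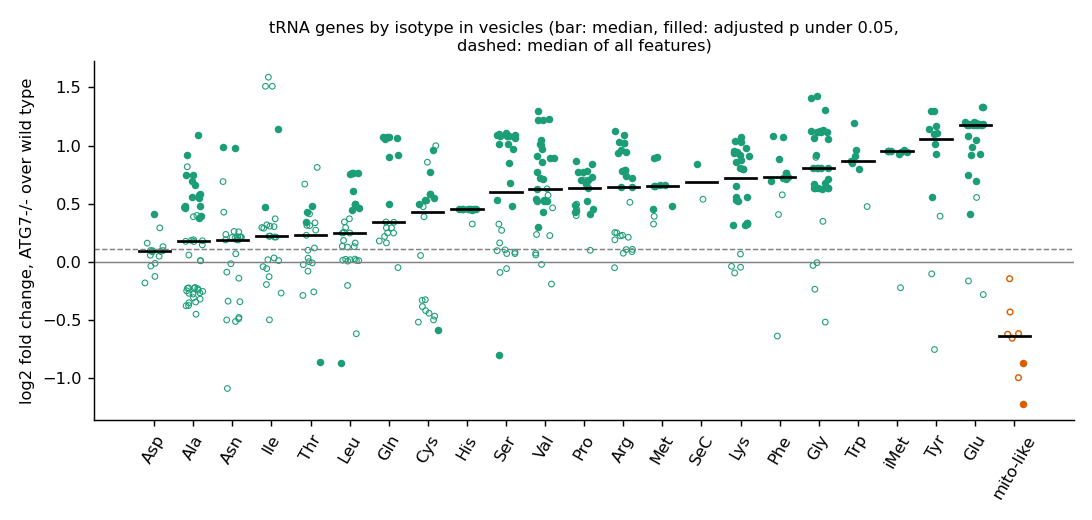
Log2 fold change of tested tRNA genes in ATG7-/- over wild type vesicles by isotype, ordered by median (black bars), with filled points for adjusted p under 0.05, orange for nuclear copies of mitochondrial tRNAs, a solid line at 0 and a dashed line at the median of all features. Glutamate tRNAs are highest with a median of 1.18, aspartate lowest of the nuclear isotypes at 0.09, and the mitochondrial copies lie below 0.

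In cells the tRNA genes did not rise as a class: over 436 genes tested in both, the cell median was -0.17. Of the 241 genes higher in vesicles, 182 were higher in the difference between the vesicle and cell changes and 6 were lower. The vesicle rise of these 241 is part of that difference. Over all 489 tRNA genes tested for this difference, 228 were higher and 17 lower (median 0.64), but the count depends on the scaling: TMM gave 147 higher and 23 lower, library totals 69 and 33 (median 0.18) and TMM over microRNAs 323 and 8. Lysine tRNAs with the anticodon CTT were higher in cells as well in 9 of 15 genes and lower in 1 (median 1.04), and those with TTT were higher in none of 13 (median -0.10). Of the 467 tested tRNA genes, 188 were lower in ATG12-/- than in ATG7-/- vesicles and 11 were higher, with a median of -0.26, so most were not called. Over all features 23.3% were lower and 26.6% higher in that comparison. Its lower calls over all features went from 198 to 148 with TMM and 147 with TMM over microRNAs. tRNA-Glu-CTC-1-7 was 0.47 lower on the log2 scale in ATG12-/- vesicles, with 175610, 182110 and 188050 normalised reads.

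MicroRNA entries are taken in 2 groups, by whether their sequence lies on a longer RNA. The mature sequences below are from RefSeq (GRCh38.p14), with the seed, bases 2 to 8, in capitals. The first 5 carry seeds shared by called microRNAs, the next 3 carry seeds of microRNAs not called, and the last 5 are entries that lie on other small or ribosomal RNAs.
miR-92a-3p: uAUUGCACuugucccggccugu
miR-92b-3p: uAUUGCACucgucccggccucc
miR-25-3p: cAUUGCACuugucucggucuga
miR-23a-3p: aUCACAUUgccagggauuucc
miR-23b-3p: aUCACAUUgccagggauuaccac
miR-222-3p: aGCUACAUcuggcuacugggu
miR-221-3p: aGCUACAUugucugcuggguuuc
miR-19b-3p: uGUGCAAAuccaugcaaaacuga
miR-664a-3p: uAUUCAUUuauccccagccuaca
miR-664b-3p: uUCAUUUGccucccagccuaca
miR-6516-5p: uUUGCAGUaacaggugugagca
miR-4485-3p: uAACGGCCgcgguacccuaa
miR-6724-5p: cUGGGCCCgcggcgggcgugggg

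Of 1425 microRNA entries 113 could be tested, 37 were higher, 11 were lower and 65 were not called. Of the 11 lower entries, 8 are entries known to lie on snoRNA, scaRNA or ribosomal RNA sequence. miR-6724-5p, which lies in the ribosomal DNA repeat, held nearly all microRNA reads, 14.7% ± 2.63 of wild type and 4.44% ± 0.614 of ATG7-/- vesicle reads (SD, n = 3). It fell from 554720, 349270 and 390080 to 144270, 186580 and 170410, a log2 fold change of -1.35 (SE 0.16). The other microRNAs together took 0.335% ± 0.0333 and 0.354% ± 0.0204.

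miR-4485-3p, whose sequence matches mitochondrial ribosomal RNA, fell from 162, 140 and 178 to 14.5, 5.84 and 5.30, a change of -4.19 (SE 0.33). It was lower in ATG7-/- cells too, by 1.15. miR-664b-3p, inside the H/ACA snoRNA gene SNORA36A, fell from 91.1, 65.0 and 74.4 to 6.59, 4.67 and 3.98, and miR-664a-3p, inside SNORA36B, from 212, 142 and 146 to 35.6, 54.9 and 33.2. The 2 arms of miR-6516, inside SCARNA16, fell by 1.27 and 1.02. The entries named here moved the way of the snoRNAs and scaRNAs they overlap, and reads of either cannot be told apart here. Of the 8 tested entries on snoRNA or scaRNA genes, 5 were lower and 3 were not called, with changes up to 0.11.

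Of the other 102 tested microRNAs, 37 were higher, 3 were lower and 62 were not called, with a median of 0.46, and 33.5% of all features were higher. With library totals their median was 0.09. The count is sensitive: leaving out 1 library gave between 21 and 45 higher microRNAs, with the lower counts of 21 without ATG7-/- replicate 2 and 24 without ATG7-/- replicate 3 or wild type replicate 3. miR-92a-3p, of the miR-17-92 cluster, went from 2985, 1878 and 2058 to 4298, 4501 and 4614, a log2 fold change of 0.98 (SE 0.15). miR-92b-3p and miR-25-3p, with the same seed, rose by 1.11 and 0.39.

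miR-342-3p went from 241, 131 and 128 to 343, 390 and 436 (1.27, SE 0.21), miR-99b-5p from 49.1, 52.5 and 48.1 to 121, 121 and 101 (1.18, SE 0.16) and miR-151a-3p from 79.5, 84.3 and 61.3 to 191, 167 and 153 (1.18, SE 0.19). All had separate groups, which the rule that named them required. miR-23a-3p and miR-23b-3p rose by 0.89 and 0.51, and 3 of 6 tested let-7 microRNAs rose. Both arms of miR-210, the hypoxia microRNA, rose by 1.57 and 1.96, from at most 33.2 normalised reads in wild type vesicles.

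miR-222-3p did not differ between ATG7-/- (166, 153 and 145) and wild type vesicles (179, 136 and 158) beyond the spread, with a change of -0.02 and an interval of -0.58 to 0.54. In ATG12-/- vesicles it had 17.9, 27.8 and 11.3, which is 3.04 lower on the log2 scale than in ATG7-/- vesicles (limma adjusted p = 5.2e-06). Its seed partner miR-221-3p gave -0.38 in ATG7-/- vesicles, not called, and was 2.55 lower in ATG12-/- than in ATG7-/- vesicles. miR-19b-3p, at -0.49, was not called, but it was called lower with library totals, TMM, TMM over microRNAs, edgeR or DESeq2 and without ATG7-/- replicate 2 or wild type replicate 1, at values down to -0.86.

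In cells the microRNAs other than those on longer RNAs were also higher, with 30 of 84 higher, none lower and a median of 0.57. Scaling the cells by TMM over microRNAs, which centres these RNAs, left 10 of all 110 microRNA entries higher and 13 lower, against 34 and 1. Of the 37 that rose in vesicles 33 were tested in cells and 15 rose there. The difference between the vesicle and the cell change was higher in 5 of the 102 and lower in 8, with a median of -0.08. That balance depends on the scaling. Over all 130 microRNA entries tested, the longer-RNA ones included, 5 were higher and 18 lower with the deposited factors (median -0.17), 2 and 26 with TMM (-0.42), 1 and 28 with edgeR (-0.48), 0 and 37 with library totals (-0.63), and 14 and 15 with TMM over microRNAs (0.18). miR-342-3p was among the 5, with a difference of 0.96 (limma adjusted p = 0.012), and miR-19b-3p, which rose by 1.18 in cells, was among the 8 at -1.67.

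MicroRNAs known from blood and liver were checked as a sign of RNA from serum. Of 8 listed, 4 were tested, 2 were higher and 2 were not called, and their summed level was 130 to 163 normalised reads in wild type and 187 to 276 in ATG7-/- vesicles. The 2 not called were miR-16-5p, with the lowest log2 fold change of the 4 at -0.73, and miR-223-3p. miR-486-5p, of red blood cells, went from 56.4, 58.1 and 48.1 to 129, 88.8 and 162, against at most 11.4 in any of the 6 cell libraries. miR-150-5p, of lymphocytes, went from 54.9, 27.7 and 32.1 to 60.7, 63.1 and 79.6 and reached at most 0.660 in those cells. The part of such RNA in the rise of other microRNAs was not tested.

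The spliceosomal RNAs did not move together. U5 fell from 6719, 9015 and 8332 to 3708, 4240 and 2811 (-1.17, SE 0.16) and U2 fell by 0.56. U4 fell by 0.44, a call that was lost without ATG7-/- replicate 1, wild type replicate 2 or wild type replicate 3. U6, the only one of the 5 made by RNA polymerase III, rose from 16194, 10912 and 13857 to 26190, 34817 and 23075, a log2 fold change of 1.03 (SE 0.16). U1 (239010, 197940 and 176440 against 169310, 199800 and 182760) was not called, though it was called lower with library totals and with TMM over microRNAs. Its share of reads was 7.56%, 7.01% and 6.43% in wild type and 4.38%, 5.06% and 5.21% in ATG7-/- vesicles, with no overlap. U7, of histone mRNA processing, fell by 0.68, with the call lost without ATG7-/- replicate 1 or wild type replicate 3.

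Of the 4 Y RNAs, which bind the Ro60 protein, 3 rose and 1 fell. RNY3 went from 6655, 5919 and 4933 to 11921, 14068 and 15214 (1.24, SE 0.12) and RNY1 from 5570, 5090 and 4092 to 8896, 10820 and 11768 (1.10, SE 0.13). RNY4 rose by 0.41, but library totals and TMM over microRNAs each ended that call. RNY5 fell from 24104, 32372 and 28757 to 20038, 20508 and 16704 (-0.57, SE 0.12). All 4 Y RNAs had separate groups, as had 578 of the 850 features (68.0%).

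VTRNA1-2, a vault RNA, rose from 237, 253 and 206 to 390, 367 and 397 (0.73, SE 0.13), and again did not pass under those 2 scalings. VTRNA1-1 (266, 245 and 254 against 291, 308 and 349) was not called at 0.31, and VTRNA1-3 was not called at 0.40. The telomerase RNA hTR, which carries an H/ACA domain, went from 1145, 831 and 877 to 790, 1038 and 574 with overlapping groups, a change of -0.27 with an interval of -0.68 to 0.13. It was called lower with library totals, with TMM over microRNAs and without ATG7-/- replicate 2.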

How the data were processed

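Small RNA of 9 vesicle and 9 cell libraries (3 per group) was read as single 50 bp reads on 2 lanes after 12 PCR cycles, per the labels' protocols. The builds GRCh38 and hg38 and the tools DESeq2, bedtools, Bowtie2 2.3 and cutadapt 2.3 are named, per the submitters' processing notes. The annotation, the counting of reads that match several copies and the order of steps are not given in the sources used here. The values the authors deposited are a scaled signal, reads divided by 1 size factor per library: each library has 1 step size of which 100% of its values are whole multiples (tolerance 1e-06). No column of another sample was present.

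Here limma 3.58.1 (R 4.3.3) with an intensity trend was fitted to log2(value + 1) over the 9 vesicle libraries, the 9 cell libraries, or all 18 for the difference between vesicle and cell changes. Fold changes on this scale understate those of features with few reads. Alternatives were edgeR 4.0.16 and DESeq2 1.42.0 on the recovered reads (508 and 504 features called), other scalings, filters, pseudocounts, a replicate block and each library left out. On simulated data with known changes the script was tested first. Features were matched to GENCODE release 29 and RefSeq by name. Members and lists were chosen with earlier results of these data known. Named features are, per class, up to 5 called features per direction with the largest fold whose groups do not overlap and whose higher mean is at least 100, the 2 with the highest mean, the 2 not called with the highest mean, all snRNAs, Y and vault RNAs, and up to 4 members of each list by mean. Some features that this rule names are not reported here. Sequences of tRNAs are not analysed here.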

Additional observations from a re-analysis of the deposited data

Results flagged for a closer look

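Of 60 named RNAs, 38 changed differently in vesicles and in cells: the log2 difference between the vesicle change and the cell change, ATG7-/- against wild type, had a limma adjusted p under 0.05. In 25 the vesicle change was the lower one and in 13 the higher. Over all features 498 of 905 (55.0%) had such a difference. Many of the 60 were named for a large vesicle change, which is part of this difference, so the count is no result about them. Among H/ACA snoRNAs the differences were U72 (-4.79), ACA28 (-4.77), ACA16 (-4.42), ACA62 (-4.42), U19 (-3.21), ACA10 (-1.67) and ACA21 (-1.07). Among C/D snoRNAs they were snR38A (-3.65), U73a (-3.32), U94 (-2.72), U3-3 (-1.07) and U3 (-1.07), and U22 went the other way (1.41). Among scaRNAs they were U100 (-2.97), ACA11 (-2.83), ACA26 (-2.28), HBII-382 (-1.54) and mgU2-25/61 (-1.54), the last pair sharing a locus.

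The microRNA entries that lie on longer RNAs differed in the same direction, with miR-4485-3p (-3.04), miR-664a-3p (-2.32), miR-6516-5p (-1.51), miR-6724-5p (-1.36) and miR-6516-3p (-1.21). Of the other microRNAs, miR-19b-3p was lower in vesicles relative to cells (-1.67) and miR-342-3p higher (0.96). U5 (-1.27) and RNY5 (-0.73) were lower, while VTRNA1-1 (1.35), RNY3 (0.96), U6 (0.93) and RNY1 (0.85) were higher. VTRNA1-1 reached this through a fall in cells, from 451, 668 and 390 normalised reads to 293, 191 and 238. The 7 tRNA genes with such a difference had already been called higher in vesicles. That change is part of the difference, so their shared direction is no separate result. They were tRNA-Glu-TTC-2-2 (1.95), tRNA-Val-AAC-1-1 (1.40), tRNA-Glu-TTC-4-2 (1.30), tRNA-Gly-CCC-2-1 (1.24), tRNA-Glu-CTC-1-7 (1.22), tRNA-Tyr-GTA-2-1 (1.22) and tRNA-Tyr-GTA-5-2 (0.93).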

How the results depend on the processing

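Scaling had the largest effect. Features higher in vesicles numbered 148 with library totals and 129 with TMM over microRNAs, against 285. The tRNA genes called higher numbered 125 and 105, and the microRNAs called higher 20 and 21, with 18 lower in each. DESeq2 called 23 microRNAs higher, and a minimum of 50 left 19 higher and 7 lower. In cells, TMM over microRNAs gave 18 higher and 542 lower, DESeq2 111 higher and a minimum of 50 gave 47 lower. The difference between vesicle and cell changes had 154 features higher with TMM, 153 with edgeR and 71 with library totals. With copies counted once, the Y RNA share changed by 0.277 percentage points, against -0.200, and without miR-6724-5p the vault RNA share by -0.00056, against 0.00195. The causes were not tested. Leaving out 1 library gave 248 to 299 higher and 235 to 247 lower features in vesicles, 21 to 45 higher and 8 to 11 lower microRNAs, 40 to 68 higher and 34 to 90 lower features in cells, and 131 to 180 lower features in ATG12-/- against ATG7-/- vesicles, with 131 without ATG7-/- replicate 1. In cells the counts were 46, 40 and 40 higher and 42, 34 and 37 lower without wild type replicates 1, 2 and 3. In the comparison of ATG7-/- with wild type vesicles, 45 of 60 named RNAs kept their call and direction under every alternative run and none reversed a call. Many of these 60 were chosen for large folds with separate groups, so the tally does not describe all tested features. This tally was not made for the cells, for the difference between vesicle and cell changes, or for ATG12-/- against ATG7-/- vesicles.

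Equal replicate numbers did not pair the vesicle libraries: deviations from the group means correlated at -0.29, 0.002 and -0.12. With the number as a replicate block 278 features were higher and 245 lower, and 519 of 531 calls were shared. The low filter limits this: microRNAs under 10 normalised reads were not tested.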
